A study of Mus musculus with 8 samples.

Results

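Hemoglobin is a tetramer of alpha-like and beta-like globin chains, each holding a heme group. In the mouse the alpha-like genes lie together on chromosome 11 and the beta-like genes on chromosome 7. The embryonic chains are made by primitive erythroblasts of the yolk sac and the adult chains by definitive erythroid cells of the fetal liver and bone marrow. Circulating reticulocytes have lost the nucleus and still carry globin mRNA. The retina has no known part in making blood, but blood circulates in its vessels and in those of the embryonic vitreous.

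The 9 genes described here were chosen by name, out of 21830 genes with a value in the deposited tables. They comprise 4 adult globin genes (Hba-a1, Hba-a2, Hbb-b1 and Hbb-b2), 3 embryonic globin genes (Hba-x, Hbb-bh1 and Hbb-y), and 2 other erythroid genes. Alas2 encodes the erythroid form of the enzyme that starts heme synthesis, and Slc4a1 encodes band 3, the anion exchanger of the red cell membrane. They take 11 of the 23021 rows of each table, because Hba-a1 and Hba-a2 are each listed at 2 loci. Their rows were summed per gene, and every one of the 11 rows carried the status OK in all 8 libraries.

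Retinas of ICR mice (slc:ICR) were profiled by poly(A) RNA-seq in 8 libraries, 1 per group, with no genetic change or drug in any group. At embryonic days 15 and 18 (E15 and E18) whole retinas were used. At postnatal days 2, 5 and 8 (P2, P5 and P8) dissociated retinal cells were sorted by an antibody to Cd73, a surface protein of rod photoreceptors encoded by Nt5e, into a Cd73-negative (Cd73NC) and a Cd73-positive (Cd73PC) fraction. The cells of 20, 12 and 20 retinas were pooled before sorting at P2, P5 and P8. With 1 library per group there was no replicate check and no test, so every difference below is between libraries, and a step from E18 to P2 is also a step from whole to sorted tissue; the effects of these cannot be told apart. In bulk samples fewer cells of a type and less RNA per cell cannot be told apart either.

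Levels are given in FPKM, fragments scaled by transcript length and by the mapped total, as the authors' program (Cufflinks) estimated them, with its confidence bounds. These bounds cover the counting and assignment of reads within 1 library and not the spread between animals. The tables hold no read totals, but the steps between low FPKM values put the depth of the 8 libraries at 0.966 to 1.61 times that of E18. Nt5e was higher in Cd73PC than in Cd73NC at each stage, and all 6 rod markers examined were more than 1.5-fold higher in Cd73PC at each of the 3 stages.

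The adult genes are hard to separate with reads of 36 bases. The coding sequences of the 2 adult alpha loci on chromosome 11 (mm9), called Hba-a1 and Hba-a2 in GENCODE, differed at 1 of 429 bases, C381T, counted from the first base of the start codon with the Hba-a1 base first. The beta loci differed at 1 of 444 bases, T417C, with the Hbb-b2 base first. The stretches around these bases are shown because they mark where the paired genes can be told apart in the coding sequence, and the differing base is in capitals.
Hba-a1: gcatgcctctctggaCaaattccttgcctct
Hba-a2: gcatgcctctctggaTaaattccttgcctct
Hbb-b2 locus: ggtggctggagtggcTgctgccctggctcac
Beta-s locus: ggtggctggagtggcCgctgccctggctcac

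Of the 394 windows of 36 bases in the Hba-a1 coding sequence, 36 (9.14%) were absent from that of Hba-a2. For the adult beta loci this was 28 of 409 windows (6.85%). The deposited Hba-a1 and Hba-a2 rows each covered both alpha loci, chr11:32183672-32184486 and chr11:32196489-32197303 for Hba-a1, and chr11:32183675-32184493 and chr11:32196492-32197310 for Hba-a2. The rows Hbb-b1 (chr7:110961042-110962437) and Hbb-b2 (chr7:110961038-110962417) lay on the same GENCODE gene, Hbb-b2. The neighbouring adult beta gene, called Hbb-b1 in GENCODE, had its own row named Beta-s (chr7:110975037-110976442), which is not among the 9 genes and is given beside them. So the split between Hba-a1 and Hba-a2 and between Hbb-b1 and Hbb-b2 is uncertain, and their sums are given as well.

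The embryonic genes were distinct. The first 60 coding bases (GENCODE M1, mm9) are printed because they show how far the embryonic chains stand from the adult ones. Capitals mark bases that differ from Hba-a1 or, for the beta-like genes, from the Hbb-b2 locus.
Hba-a1: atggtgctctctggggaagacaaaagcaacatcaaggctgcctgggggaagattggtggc
Hba-x: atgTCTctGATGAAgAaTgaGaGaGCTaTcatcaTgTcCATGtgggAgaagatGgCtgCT
Hbb-b2 locus: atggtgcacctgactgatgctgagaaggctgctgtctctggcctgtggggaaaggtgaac
Hbb-bh1: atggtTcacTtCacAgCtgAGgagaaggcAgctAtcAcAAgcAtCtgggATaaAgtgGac
Hbb-y: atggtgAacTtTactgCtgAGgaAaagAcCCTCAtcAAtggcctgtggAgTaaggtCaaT

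Over the whole coding sequence Hba-x, the zeta chain of embryonic hemoglobin, was identical to Hba-a1 at 62.0% of positions. Hbb-bh1 and Hbb-y, the embryonic beta-like genes, were identical to the Hbb-b2 locus at 73.9% and 74.1%. All of their windows of 36 bases (100%) were absent from the adult coding sequence they were compared with. Hba-x lies at chr11:32176600-32178115, Hbb-bh1 at chr7:110990152-110991676 and Hbb-y at chr7:111000268-111001721.

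The genes' upstream sequences are shown because Hba-a1 and Hbb-b2, on different chromosomes, had the same order over the libraries in the data that follow. Hba-a2 and Hbb-b1 departed from that order. Whether the upstream sequences have a part in it was not tested. Each is the 120 bases before the RefSeq transcription start (table on GRCm38.p6), placed on mm9 by an exact match. Capitals mark the motif AGATAA (a form of the GATA site), the CACCC box, the CCAAT box and the TATAA box on either strand. Neighbouring matches can touch, and other forms of the GATA site were not searched. Hbb-bt is the RefSeq gene at the Hbb-b1 row and Hbb-bs the one at the Beta-s row.
Hba-a1 (chr11:32183552-32183671, plus strand): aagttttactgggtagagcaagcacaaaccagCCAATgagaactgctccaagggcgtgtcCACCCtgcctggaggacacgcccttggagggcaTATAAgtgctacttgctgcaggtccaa
Hba-x (chr11:32176480-32176599, plus strand): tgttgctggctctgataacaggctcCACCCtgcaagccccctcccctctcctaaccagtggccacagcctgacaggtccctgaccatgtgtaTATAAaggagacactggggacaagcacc
Hbb-bt (chr7:110962438-110962557, minus strand): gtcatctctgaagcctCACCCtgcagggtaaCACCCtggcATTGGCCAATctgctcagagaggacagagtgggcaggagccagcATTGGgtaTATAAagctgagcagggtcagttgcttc
Hbb-bs (chr7:110976443-110976562, minus strand): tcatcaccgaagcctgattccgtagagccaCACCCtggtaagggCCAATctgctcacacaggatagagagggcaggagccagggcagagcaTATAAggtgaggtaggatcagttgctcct
Hbb-y (chr7:111001722-111001841, minus strand): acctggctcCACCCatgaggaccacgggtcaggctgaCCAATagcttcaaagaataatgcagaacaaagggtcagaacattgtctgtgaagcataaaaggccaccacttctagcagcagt
Alas2 (chrX:146981840-146981959, plus strand): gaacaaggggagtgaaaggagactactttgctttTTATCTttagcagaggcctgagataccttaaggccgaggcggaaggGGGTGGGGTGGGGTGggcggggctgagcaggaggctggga

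The adult alpha and beta promoters shared a CACCC box, a CCAAT box and a TATAA box. The CCAAT box came first in Hba-a1 and the CACCC box first in the beta genes. The TATAA box lay nearest the start site in each, beginning at -27 in Hba-a1, -28 in Hbb-bt and -29 in Hbb-bs, counted back from -1 at the last base shown. Of 32851 RefSeq promoter windows of the same length, 31.7% held a CACCC box, 21.3% a CCAAT box, 11.8% a TATAA box and 4.36% the AGATAA motif, and 1.1% held 3 or more of the 4. Of the motifs searched, Hba-x held the CACCC and the TATAA box, and Hbb-y held the CACCC and the CCAAT box. Alas2 held AGATAA and a run of CACCC boxes, all on the minus strand. The Hba-a1 sequence occurs identically at the second locus (chr11:32196369-32196488), and that of Hba-a2 is the same stretch shifted. A match of letters is a description and not a binding site.

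Adult globin mRNA was present in every retina library and varied over a wide range. Hba-a1 measured 601 FPKM at E15 and 186 at E18, 96.1 in Cd73NC and 29.1 in Cd73PC at P2, then 1346 and 911 at P5 and later 5073 and 1994 at P8. It was thus lowest in the P2 Cd73PC library and highest at P8. In the P8 Cd73NC library it ranked 1 among all genes by FPKM, while in the P2 Cd73PC library it ranked 2776.

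Hbb-b2 had 211 FPKM at E15, 57.04 at E18, 26.9 and 3.68 in Cd73NC and Cd73PC at P2, then 451 and 303 at P5 and later 1480 and 594 at P8. Its order over the 8 libraries was the same as that of Hba-a1. Hbb-b1 varied less, with 39.3 FPKM at E15, 7.78 at E18, 9.38 and 7.15 at P2, then 22.2 and 21.9 at P5 and later 72.1 and 71.0 at P8. Its bounds overlapped between E18 and both P2 libraries, and between the fractions at each stage, so these levels did not differ beyond them.

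Hba-a2 stood apart from Hba-a1, although their coding sequences are nearly the same. It had 71.6 FPKM at E15, then 0.0360 at E18 and 0.0211 and 0.0216 in Cd73NC and Cd73PC at P2, with lower bounds of 0. It returned to 181 and 122 at P5 and to 356 and 94.9 at P8. As a share of the summed Hba-a1 and Hba-a2 FPKM, Hba-a2 made up 10.6% at E15, 11.8% in both P5 libraries, 6.56% and 4.55% at P8, and at most 0.0743% at E18 and P2. The share of Hbb-b1 in the Hbb-b1 and Hbb-b2 sum likewise varied, from 4.64% in P8 Cd73NC to 66.0% in P2 Cd73PC. The share of Beta-s in the 3 adult beta rows was steadier, at 56.9% to 61.3%.

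**Figure D1:**
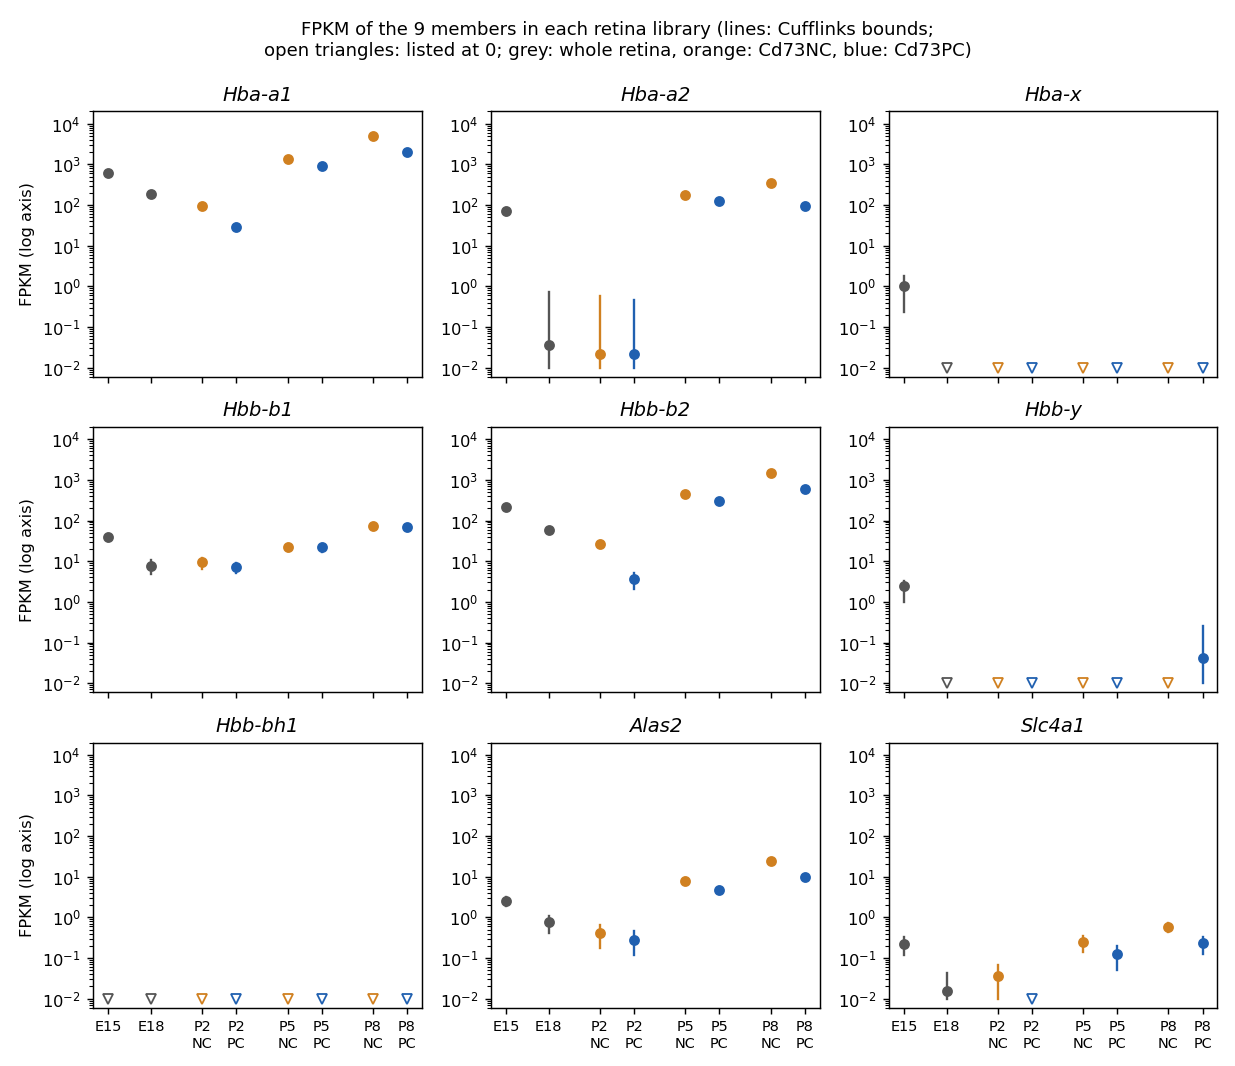
FPKM (log axis) of the 9 genes in the 8 libraries, with points for the values, lines for the Cufflinks bounds and open triangles for values listed at 0; bounds below 0.01 are drawn at the 0.01 floor. Hba-a1, Hbb-b2 and Alas2 have their lowest point in P2 Cd73PC and their highest in P8 Cd73NC, and Hba-x and Hbb-y stand clear of 0 at E15 alone.

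The sum of the 4 adult globins was 924 FPKM at E15 (bounds 849 to 999) and 251 at E18 (223 to 279). It was 132 in Cd73NC (114 to 151) and 39.9 in Cd73PC (31.1 to 49.0) at P2. At P5 it was 2001 and 1358, and at P8 it reached 6982 in Cd73NC (6895 to 7234) and 2754 in Cd73PC (2653 to 2886). No 2 neighbours in the order of these sums had overlapping bounds. The 4 genes made up 0.249% of all FPKM at E15, 0.0105% in P2 Cd73PC and 1.93% in P8 Cd73NC.

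The embryonic globins were found at E15. Hba-x had 1.03 FPKM at E15 (bounds 0.229 to 1.83) and was listed at 0 in the other 7 libraries. Hbb-y had 2.47 FPKM at E15 (0.997 to 3.32), 0.0418 in P8 Cd73PC with a lower bound of 0, and was listed at 0 in the other 6. Hbb-bh1 was listed at 0 in all 8 libraries. Without read counts, a listed 0 gives no upper limit on the level.

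At E15 the adult chains therefore far exceeded the embryonic ones. Hba-x made up 0.154% of the alpha-like FPKM at E15, and 0.0315% to 0.294% when the opposite bounds of the embryonic and adult genes were combined. Hbb-y and Hbb-bh1 made up 0.975% of the beta-like FPKM (0.364% to 1.43%), or 0.423% with Beta-s added to the adult beta genes. At later stages both shares were 0 except for 0.00627% of the beta-like FPKM in P8 Cd73PC. From E15 to E18 the adult sum was 3.68-fold lower.

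Alpha-like and beta-like mRNA were compared because hemoglobin holds both chains in equal number. The alpha-like FPKM was 2.66 times the beta-like FPKM at E15, 2.87 at E18, 2.65 and 2.68 in Cd73NC and Cd73PC at P2, then 3.22 and 3.19 at P5 and later 3.50 and 3.14 at P8. The ratio stayed within a narrow band while the summed adult globins differed more than 100-fold between libraries. With Beta-s counted among the beta-like genes, the ratios lay closer to 1, from 1.04 in P2 Cd73PC to 1.46 in P8 Cd73NC. The Beta-s estimate lay above its own upper bound in every library, for example 331 FPKM at E15 against an upper bound of 243, so this ratio is uncertain. The ratio without Beta-s leaves out the row of the second adult beta locus, while the alpha sum covers both alpha loci. Beta-s held 56.9% to 61.3% of the FPKM of the 3 adult beta rows, so neither ratio measures the balance of the chains.

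**Figure D2:**
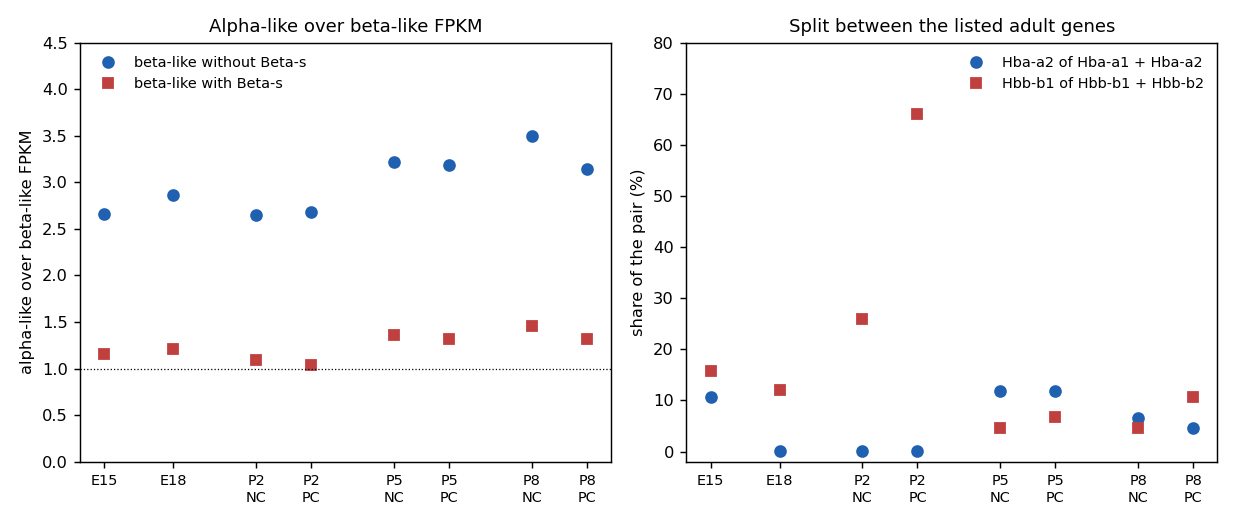
Left, alpha-like over beta-like FPKM in each library, without Beta-s (circles) and with it (squares), and a dotted line at 1; right, the percent of Hba-a2 in the Hba-a1 and Hba-a2 sum and of Hbb-b1 in the Hbb-b1 and Hbb-b2 sum. The ratios stay between 2.65 and 3.50 or between 1.04 and 1.46, whereas the splits within a pair run from 0.0194% to 11.8% and from 4.64% to 66.0%.

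Alas2 followed the adult globins at a much lower level. It had 2.54 FPKM at E15, 0.765 at E18, 0.412 and 0.284 in Cd73NC and Cd73PC at P2, then 7.98 and 4.80 at P5 and later 24.8 and 10.1 at P8. Its order over the 8 libraries was that of Hba-a1, and it amounted to 2.75 to 3.99 FPKM per 1000 FPKM of the 4 adult globins in 7 libraries. In P2 Cd73PC, where both were lowest, this was 7.12. Slc4a1 stayed below 1 FPKM throughout, with 0.221 at E15, 0.0152 at E18, 0.0361 and 0 at P2, then 0.252 and 0.123 at P5 and later 0.586 and 0.228 at P8. It too was highest in P8 Cd73NC.

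The likeness of the patterns was measured by Pearson's r of log2(FPKM + 1) over the 8 libraries, against the mean of the adult globins other than the gene itself. It was 0.977 for Hba-a1, 0.961 for Hbb-b2, 0.956 for Alas2, 0.927 for Hba-a2, 0.899 for Hbb-b1 and 0.885 for Slc4a1. Spearman's rho was 1 for Alas2. These 8 points share stages and fractions and are not replicates, so the values are descriptions. Outside the 9 genes, and among 10855 genes that reached 5 FPKM in a library, Beta-s was most like the mean adult globin, with r of 0.992. Its coding sequence differs from that of the Hbb-b2 locus at 1 of 444 bases, and reads with up to 50 hits were kept. Beta-s and the paired adult globin rows can thus draw on the same reads, so their r values are not independent. The next 9 (Fam193a, Pofut2, Dhx38, Pqlc1, B4galt7, Gtf3c1, BC017647, Sall2 and Sipa1l3) had r of 0.905 to 0.939. They spanned 0.266 to 1.35 on the log2 scale over the libraries, against 6.83 for the adult globin mean. The 5 genes most like the embryonic mean, Gm6537, Zfp768, Banp, 0610010B08Rik and Sst, had r of 0.919 to 0.962. Their Spearman's rho ran from 0.109 for Gm6537 to 0.764 for 0610010B08Rik. The embryonic mean stood clear of 0 at E15 alone, so that these 5 were highest at E15 follows from how they were chosen.

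The fractions separate rod precursors, in Cd73PC, from the other cells of the dissociated retina, and the globins were compared between them at each stage. A gene was called different here when its log2(FPKM + 1) differed by 1.5-fold or more, a scale that understates differences of low genes. In each comparison 2 to 6 of the 9 genes were below 1 FPKM in both libraries. Counts out of 9 and shares of genes with at least 1 FPKM therefore have different bases. The summed adult globins were lower in Cd73PC at each stage, and Hba-a1 was the largest part of the sum. The sum was 3.32-fold higher in Cd73NC than in Cd73PC at P2, 1.47-fold at P5 and 2.54-fold at P8, and its bounds did not overlap at any stage.

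At P2, 2 of the 9 genes were called lower in Cd73PC and none higher, against 14.4% of all genes lower and 8.57% higher. Among genes with at least 1 FPKM in either library, 25% were lower. The 2 genes were Hba-a1, with a log2 difference of -1.69, and Hbb-b2, with -2.58. Hbb-b1 differed by -0.35 with overlapping bounds, Alas2 by -0.14 and Slc4a1 by -0.05. Because Hba-a2 was near 0 in both libraries, it gave no difference. Beta-s was also higher, with 51.3 against 17.1 FPKM, in Cd73NC.

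At P5 the adult sums of the fractions lay closest. The fractions also differed least in Nt5e there, with 131 FPKM in Cd73PC against 31.4 in Cd73NC, beside 97.3 against 2.43 at P2 and 124 against 9.38 at P8. The 6 rod markers summed to 45.2, 630 and 676 FPKM in Cd73NC over the 3 postnatal stages, and to 2326, 5646 and 10501 in Cd73PC. The part of this in the globin difference was not tested. Only Alas2, with a log2 difference of -0.63, was called lower in Cd73PC, so 1 of 9 and none higher, against 15.6% of all genes lower and 7.02% higher. Among genes with at least 1 FPKM, 27% were lower. Hba-a1 and Hba-a2 both differed by -0.56 and Hbb-b2 by -0.58, just inside the 1.5-fold limit of 0.585, and their bounds did not overlap. Hbb-b1 differed by -0.02. The count at P5 thus turned on small shifts, and it was 0 under upper-quartile scaling and 3 under quantile normalization.

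At P8, 4 of the 9 genes were called lower in Cd73PC and none higher, against 18.6% of all genes lower and 7.54% higher, and 31.3% lower among genes with at least 1 FPKM. The log2 differences were -1.35 for Hba-a1, -1.90 for Hba-a2, -1.31 for Hbb-b2 and -1.22 for Alas2. As ratios of FPKM, Cd73NC exceeded Cd73PC 2.54-fold for Hba-a1, 2.49-fold for Hbb-b2, 2.46-fold for Alas2, 2.57-fold for Slc4a1 and 2.35-fold for Beta-s. The ratio was 3.75 for Hba-a2 and 1.01 for Hbb-b1. Slc4a1 was not called, since both its values were below 1 FPKM, but its bounds did not overlap.

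Hbb-b1 differed least between the fractions at P8 among the adult globins. It had 72.1 FPKM in Cd73NC and 71.0 in Cd73PC at P8, a log2 difference of -0.02, while its overlapping row Hbb-b2 was 2.49-fold higher in Cd73NC. The sign of the Hbb-b1 difference at P5 and P8 became positive under upper-quartile scaling and quantile normalization, as did that from E18 to P2 Cd73PC under the latter. Relative to the deposited scale these scalings raised the median gene of Cd73PC over Cd73NC by up to 0.22 on the log2 scale. No gene called in any comparison changed sign under them.

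**Figure D3:**
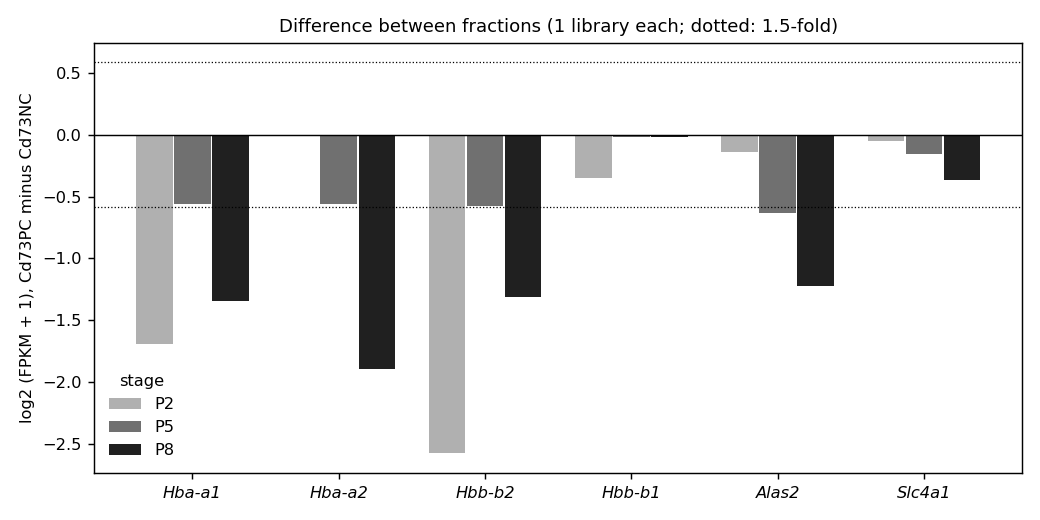
Difference in log2(FPKM + 1), Cd73PC minus Cd73NC, for 6 genes at P2, P5 and P8 (bars, 1 library per fraction), with dotted lines at 1.5-fold. Hba-a1, Hbb-b2 and Alas2 are below 0 at each stage and Hbb-b1 is at -0.02 at P5 and P8; Hba-x, Hbb-bh1 and Hbb-y were at or near 0 and are not drawn.

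Over time the adult sum, which Hba-a1 dominated, was lower at E18 than at E15, lower still at P2, and higher at P5 and P8, while single members differed from this. From E15 to E18, 7 of the 9 genes were called lower and none higher, against 2.1% of all genes lower, and 3.47% of those with at least 1 FPKM in either library. Hba-a1 differed by -1.69 on the log2 scale, Hbb-b2 by -1.87, Hbb-b1 by -2.20 and Alas2 by -1.003. Hba-x and Hbb-y, at -1.02 and -1.79, were listed at 0 at E18, and Slc4a1, at -0.27, was not called. The difference of Hba-a2, -6.13, rests on the uncertain split, and the Hba-a1 and Hba-a2 sum differed by -1.85.

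From E18 to P2 few of the 9 genes were called. The sum of the 4 adult globins was 1.89-fold lower in P2 Cd73NC than at E18 and 6.28-fold lower in P2 Cd73PC. Its bounds did not overlap in either comparison. In P2 Cd73NC, 2 of 9 genes were called lower, against 8.2% of all genes and 13.3% of those with at least 1 FPKM, and they were Hba-a1 (-0.94) and Hbb-b2 (-1.06). The same 2 genes were called lower in P2 Cd73PC, at -2.64 and -3.63, against 18.3% of all genes and 30.2% of those with at least 1 FPKM. This count out of 9 was near the share of all genes. Of the 9 genes, 6 were below 1 FPKM in both libraries, so the filtered share has a different base. Both comparisons use the E18 library. Hbb-b1 differed by 0.24 in Cd73NC and by -0.11 in Cd73PC, with overlapping bounds, and Alas2 by -0.32 and -0.46.

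From P2 to P5 all 4 adult globins and Alas2 were called higher in both fractions, 5 of 9 against 7.93% of all genes in Cd73NC and 3.36% in Cd73PC. Among genes with at least 1 FPKM these shares were 13.1% and 5.93%. The log2 differences in Cd73NC were 3.79 for Hba-a1, 4.02 for Hbb-b2, 1.16 for Hbb-b1 and 2.67 for Alas2. In Cd73PC they were 4.92, 6.02, 1.49 and 2.17. The adult sum was 15.1-fold higher in Cd73NC and 34.0-fold higher in Cd73PC. Whether the fractions differed in this step was not tested.

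From P5 to P8 the same 5 genes were called higher in Cd73NC, against 8.47% of all genes and 14.1% of those with at least 1 FPKM. Hba-a1 differed by 1.91, Hba-a2 by 0.97, Hbb-b1 by 1.65, Hbb-b2 by 1.71 and Alas2 by 1.53. In Cd73PC 4 genes were called higher, against 3.31% of all genes and 5.94% of those with at least 1 FPKM, with 1.13 for Hba-a1, 1.65 for Hbb-b1, 0.97 for Hbb-b2 and 0.94 for Alas2. There Hba-a2 differed by -0.36, with overlapping bounds, while the Hba-a1 and Hba-a2 sum was 2.02-fold higher. The median difference of the 4 adult globins was 1.68 in Cd73NC and 1.05 in Cd73PC, and that of all genes was 0 in both.

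The other genes of heme and red cell biology did not move as a block with the globins. Among 9 heme synthesis genes, Alas2 was the one that was called higher from P2 to P5 in either fraction. Alas1, the housekeeping form of the same enzyme, stayed between 9.74 and 13.6 FPKM. Between the fractions, Alad and Urod were called higher in Cd73PC at all 3 stages and Cpox at P5 and P8, while Alas2 was lower at P5 and P8 and Uros at P2 and P5. The list medians were -0.14, -0.15 and -0.23 at P2, P5 and P8, against 0, 0 and -0.02 for all genes. They were close to the medians of genes with at least 1 FPKM in either library, which were -0.14, -0.18 and -0.23.

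Of 12 genes of heme breakdown and iron handling, 2, 6 and 3 were called higher in Cd73PC at P2, P5 and P8, and 0, 0 and 2 lower. Of all genes 8.57%, 7.02% and 7.54% were higher and 14.4%, 15.6% and 18.6% lower at these stages, which also stands beside the counts that follow. Fth1, the ferritin heavy chain, was higher each time, with 1213 FPKM against 473 at P8. Of 16 genes of the red cell membrane and skeleton, 10 stayed below 1 FPKM in every library. Spnb1, erythroid beta-spectrin, was lower in Cd73PC at P5 and P8, with 4.66 against 16.8 and 7.005 against 24.5 FPKM. Add2 was called lower in Cd73PC at each stage, Gypc at P2 and P5, and Epb4.9 at P5 and P8. Epb4.1 and Aqp1 went the other way and were called higher in Cd73PC at P8, with 450 against 142 and 2.98 against 0.360 FPKM. Over the 3 stages 0, 0 and 2 of these 16 were called higher in Cd73PC and 2, 4 and 3 lower, the latter near the shares of all genes.

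Of 12 erythroid regulators, Gata1 and Gfi1b were listed at 0 in every library, and Klf1, Nfe2, Tal1 and Epor stayed below 1 FPKM. The other 6 also act outside the erythroid lineage. Zfpm1 and Lmo2 were called higher in Cd73PC at each stage, Ldb1, Bcl11a and Myb lower at each stage, and Sox6 lower at P5 and P8. Among the 12 red cell enzymes found, Car2 and Cat were called lower in Cd73PC at all 3 stages and Prdx2 at P8, and Tmcc2 higher at P2. The chaperone Ahsp was not analysed here. Of 5 other globins found, Cygb, cytoglobin, was the one that reached 5 FPKM, with 30.5 in Cd73NC and 10.9 in Cd73PC at P8, and it alone was called lower in Cd73PC, at that stage. The other 4, Hbq1a, Hbq1b, Ngb and Mb, stayed below 1 FPKM.

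Markers of blood and vessel cells were set beside the globins. Of 6 reticulocyte and erythroblast markers, Klf1, Gata1, Epb4.2, Rhag and Hemgn stayed below 1 FPKM in every library, with Gata1 at 0. Tfrc, the transferrin receptor, carried nearly all of their sum, which ranged from 12.5 to 26.8 FPKM and was highest in P8 Cd73PC. The sum of 7 platelet markers ranged from 2.03 to 11.6 FPKM, and Ppbp and Gp6 were listed at 0 throughout. Its highest values were mostly Gp1bb, with 10.9 FPKM at E15 and 10.6 at E18, and Pf4, Itga2b and Gp9 stayed below 1 FPKM.

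The endothelial and pericyte marker sums were also lower in Cd73PC at each stage. Those of leukocytes and of microglia and macrophages were lower in Cd73PC at P5 and P8 and higher at P2. The sum of 7 endothelial markers was 184 FPKM in Cd73NC and 39.0 in Cd73PC at P2, then 163 and 42.9 at P5 and later 89.9 and 16.3 at P8. Of these 7, 0, 1 and 0 were called higher in Cd73PC and 3, 1 and 3 lower, beside 8.57%, 7.02% and 7.54% of all genes higher and 14.4%, 15.6% and 18.6% lower, which holds for the next lists too. Most of the sum was Kdr, a receptor of vascular endothelial growth factor, with 139 FPKM in Cd73NC against 29.7 in Cd73PC at P2, then 143 against 22.1, and later 67.5 against 9.47. The other 6 summed to 44.7 and 9.33, 20.6 and 20.7, and 22.4 and 6.82, so that without Kdr the fractions were level at P5. The median log2 difference of the 7 at P5 was 0.37, higher in Cd73PC. The sum of 4 pericyte markers was 2.09 and 1.55, 15.2 and 9.72, and 21.7 and 3.03, with 1, 1 and 4 markers lower. For 8 leukocyte markers the sums were 6.80 and 9.12 at P2, then 10.8 and 5.22 at P5 and later 39.7 and 19.0 at P8, with 2, 0 and 0 markers higher and 0, 2 and 4 lower. The 7 markers of microglia and macrophages summed to 8.13 and 49.99 at P2, where all 7 were higher in Cd73PC, to 61.2 and 40.0 at P5, with 3 lower, and to 182 and 137 at P8, with 1 lower.

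Over time the endothelial sum was lower at P8 than at P5 in both fractions, when the adult globin sum was higher. Without Kdr the endothelial sum was 20.6 at P5 and 22.4 at P8 in Cd73NC, and 20.7 and 6.82 in Cd73PC. The microglial and leukocyte sums were higher at P8 than at P5 in both fractions, as the adult globin sum was. In P8 Cd73NC the leukocyte sum was mostly Lyz2, Coro1a and Cd52, at 13.7, 13.1 and 6.86 FPKM, with the other markers at 2.78 or less. Lyz2 and Cd52 were also called higher in Cd73PC at P2, as the microglial markers were. The pericyte sum was higher at P8 than at P5 in Cd73NC and lower in Cd73PC. The 6 retinal markers other than those of rods summed to 696 and 382 FPKM in Cd73NC and Cd73PC at P2, and to 1633 and 402 at P8. The part of these cells in the globin differences was not tested.

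**Figure D4:**
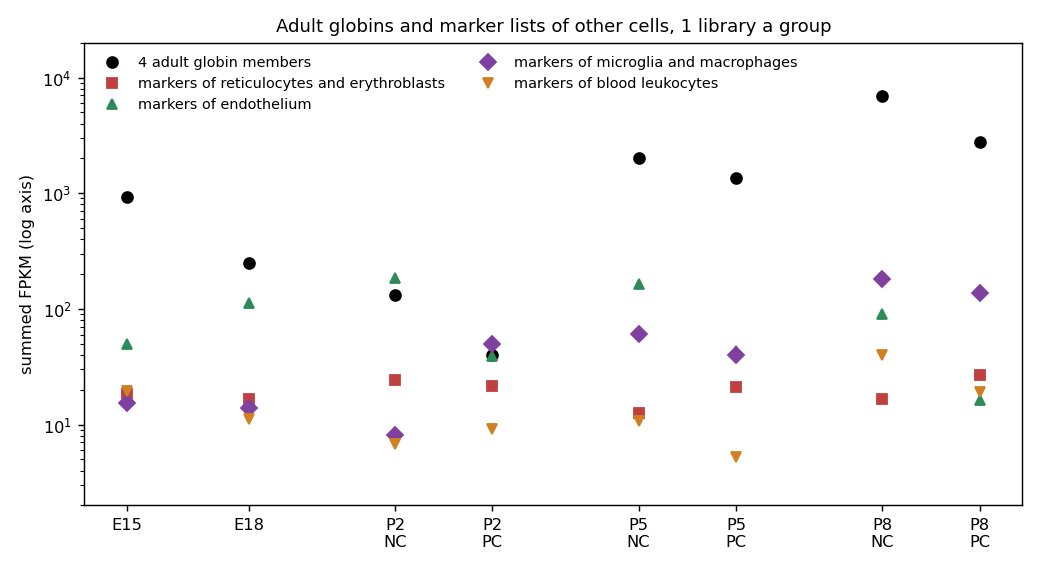
Summed FPKM (log axis) of the 4 adult globins and of 4 marker lists in the 8 libraries, 1 library per group. The summed adult globins run from 39.9 in P2 Cd73PC to 6982 in P8 Cd73NC. The reticulocyte and erythroblast markers stay between 12.5 and 26.8, a sum that is nearly all Tfrc.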

How the data were processed

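The deposited tables hold FPKM values with confidence bounds, which the authors made per library from 36-base single-end reads with TopHat2 2.0.8b (up to 50 hits per read) and Cufflinks 2.1.1 on mm9, after CASAVA 1.8.2 and bcl2fastq 1.8.4, per the labels and the study's methods. Strand was not given in the sources used here. Here 794 rows of small RNAs were left out, rows of 1 symbol were summed, and values marked as failed (4 to 10 rows a table) were treated as missing. Differences were taken on log2(FPKM + 1), and 1.5-fold was the limit for a call; no test was possible with 1 library per group. Relative depth came from ratios of FPKM values below 0.3. The 9 genes were all reported in every library, and the 10 and 5 genes most like the adult and embryonic means were named. List members were named in part, so an unnamed one may have reached 5 FPKM. A gene of the membrane and marker lists is not reported here. The members and gene lists were chosen with earlier results of these data known. Sequences came from GENCODE M1 on mm9 and a RefSeq promoter table, which held none for Hbb-bh1 and Slc4a1. Alternatives covered the pseudocount, scaling, filters, fold limit and the choice of adult genes. Python 3.11.15, numpy 2.4.6, pandas 2.3.3 and matplotlib 3.10.9 were used, and the scripts' calls were tested on simulated data.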

Additional observations from a re-analysis of the deposited data

Results flagged for a closer look

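Hba-a2 went opposite ways in the fractions from P5 to P8. Its log2(FPKM + 1) differed by 0.97 in Cd73NC and by -0.36 in Cd73PC, and this difference between the fractions was not tested. Each value rests on 1 library per group and on the uncertain split between Hba-a1 and Hba-a2, whose sum was higher at P8 in both fractions.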

How the results depend on the processing

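With 1 library per group, the values below have no replicate error, and a change of more than 1.5-fold under an alternative is given as a move. No paired analysis was possible because each group held 1 library and the result comes from no test. Of 507 recomputed log2 differences of the 9 genes, 476 moved less than 1.5-fold, 31 moved more and none that was called changed sign. A single one of the 31 (Hba-a1 from P5 to P8 in Cd73NC, 1.28 under quantile normalization) did not come from another pseudocount. Of 80 recomputed counts of called genes, 74 stayed within 1.5 times. At P5 the count between fractions (1) was 0 at 2-fold, 2 with a pseudocount of 0.1, 0 under upper-quartile scaling and 3 under quantile normalization. At 2-fold it was 1 from E18 to P2 in Cd73NC and 2 from P5 to P8 in Cd73PC.

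At E15 the embryonic percent of alpha-like FPKM was 0.0315 and 0.294 with opposite bounds and 0.307 with the adult genes averaged. For beta-like FPKM it was 0.364 with the lower bound, 5.91 with Hbb-b1 as the adult beta gene alone, and 0.423 with Beta-s, which was added after seeing the data. The alpha to beta ratios with Hbb-b1 alone were 16.1 at E15, 23.9 at E18, 10.3 and 4.07 in Cd73NC and Cd73PC at P2, then 68.7 and 47.2 at P5 and later 75.3 and 29.4 at P8. With Beta-s they were 1.15, 1.22, 1.10, 1.04, 1.37, 1.32, 1.46 and 1.32 in the same order.

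All-gene counts moved over 1.5-fold in 39 of 160 cases, 20 at 2-fold, 16 with a pseudocount of 0.1 and 3 under quantile normalization. Under quantile normalization the percent of calls that were higher went from 31.1 to 48.9 for Cd73PC over Cd73NC at P5 and from 28.9 to 49.2 at P8. It went from 68.7 to 54.3 between E15 and E18, from 28.1 to 44.6 and from 32.4 to 48.8 between E18 and P2 in Cd73NC and Cd73PC, and from 28.2 to 48.7 between P2 and P5 in Cd73PC. Upper-quartile scaling gave 41.4 at P5 between fractions and 43.3 between P2 and P5 in Cd73PC. Of the 10 genes most like the adult globins, 3 stayed among the top 10 by Spearman's rho and 9 with a pseudocount of 0.1, and of the 5 most like the embryonic globins, 1 and 3.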
